A study of Mus musculus with 6 samples.

Results

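Brown fat makes heat on a signal that begins at G protein-coupled receptors on the adipocyte surface. Described here are 9 of these receptors, the rows of the deposited gene table that match Adrb1, Adrb3, Adra1a, Adra2a, Adora1, Adora2a, Gpr3, Hcar1 and Ptger3, out of 54385 rows in all. The tissue was interscapular brown fat, the depot between the shoulder blades, of C57BL/6N mice fed chow for 20 weeks and kept at 5 °C for 24 hours before collection. Polyadenylated RNA of 6 samples was sequenced. The 3 controls, with genotype Adcy3-FL/FL and Adipoq-wt/wt, carried floxed Adcy3 alleles and no Cre. The 3 knockouts, Adcy3-FL/FL and Adipoq-wt/cre, carried the same floxed alleles and Adipoq-Cre, which is driven by the promoter of the adipocyte hormone gene Adiponectin. All 6 carried the floxed alleles and all were cold-exposed, so neither the floxed allele nor the cold can be assessed here, and Cre itself cannot be told apart from the loss of Adcy3. The series' design text names a different fat depot and 4 replicates; the groups used here are those of the sample labels.

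Adcy3 encodes adenylyl cyclase 3, an enzyme that makes cyclic AMP downstream of these receptors. A receptor coupled to the stimulatory G protein Gs turns adenylyl cyclase on, and the cyclic AMP formed activates protein kinase A, which starts lipolysis and induces genes of heat production. A receptor coupled to the inhibitory G protein Gi turns the cyclase down. In cold, sympathetic nerves release noradrenaline onto brown adipocytes, and the beta-adrenergic receptors carry most of that signal. Adrb1, Adrb3, Adora2a and Gpr3 are Gs-coupled, while Adra2a, Adora1, Hcar1 and Ptger3 act mainly through Gi. Adra1a couples mainly to Gq, which raises calcium, and was kept apart from both groups. The comparison asks whether the transcripts of the receptors upstream of the cyclase differed when adipocytes lacked it.

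Library totals ranged from 13956786 to 17538044 estimated counts. Adcy3 itself fell from 154 ± 17.7 CPM (counts per 1000000) in controls to 25.4 ± 4.36 CPM in knockouts (mean ± SD of 3 libraries; edgeR adjusted p = 0.00146). The brown fat marker Ucp1 (5398 to 7592 CPM) and the adipocyte gene Adipoq (287 to 347 CPM) were abundant in every library. Skeletal muscle transcripts were not evenly spread. Of all counts, 20 muscle markers took 2.21%, 1.99% and 1.69% in the controls, numbered 1 to 3, but 0.950%, 0.0735% and 0.00998% in the knockouts. An exact permutation test (two-sided) gave p = 0.1, below which 3 against 3 cannot go. Every knockout lay under every control, so a fit with the muscle marker level as a covariate cannot fully separate it from genotype. Knockout library 1 also stood apart from the other knockouts, with a chi-square per degree of freedom of 70.1 and 65.8 against them. Knockout libraries 2 and 3 gave 13.9 against each other. Against control libraries 1 to 3, knockout library 1 gave 53.8, 54.5 and 43.7, less than against either other knockout. For that reason receptor values are given by library, and with knockout library 1 left out where that moves them.

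No receptor passed the test between genotypes. Of the 9 receptors, 7 had enough counts to be tested, and 0 of the 7 reached an adjusted p under 0.05 in edgeR's quasi-likelihood test, where 0.0609% of all 14767 tested genes did. DESeq2's Wald test and limma-voom also called 0 of the 7, against 2.08% and 0.223% of all genes. With knockout library 1 left out, 5.64% of all genes were called and still 0 of the 7. At an unadjusted p under 0.05 there were 2 receptors, Adrb1 (higher) and Hcar1 (lower), where 10.5% of all genes reached that level. The 7 log2 fold changes ran from -0.69 to 0.48 with a median of 0.10, beside a median of 0.01 over all tested genes. Of the 7, 5 were positive and 2 negative. In bulk tissue, fewer cells of a type and less RNA per cell cannot be told apart, and this holds for each value below.

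**Figure D1:**
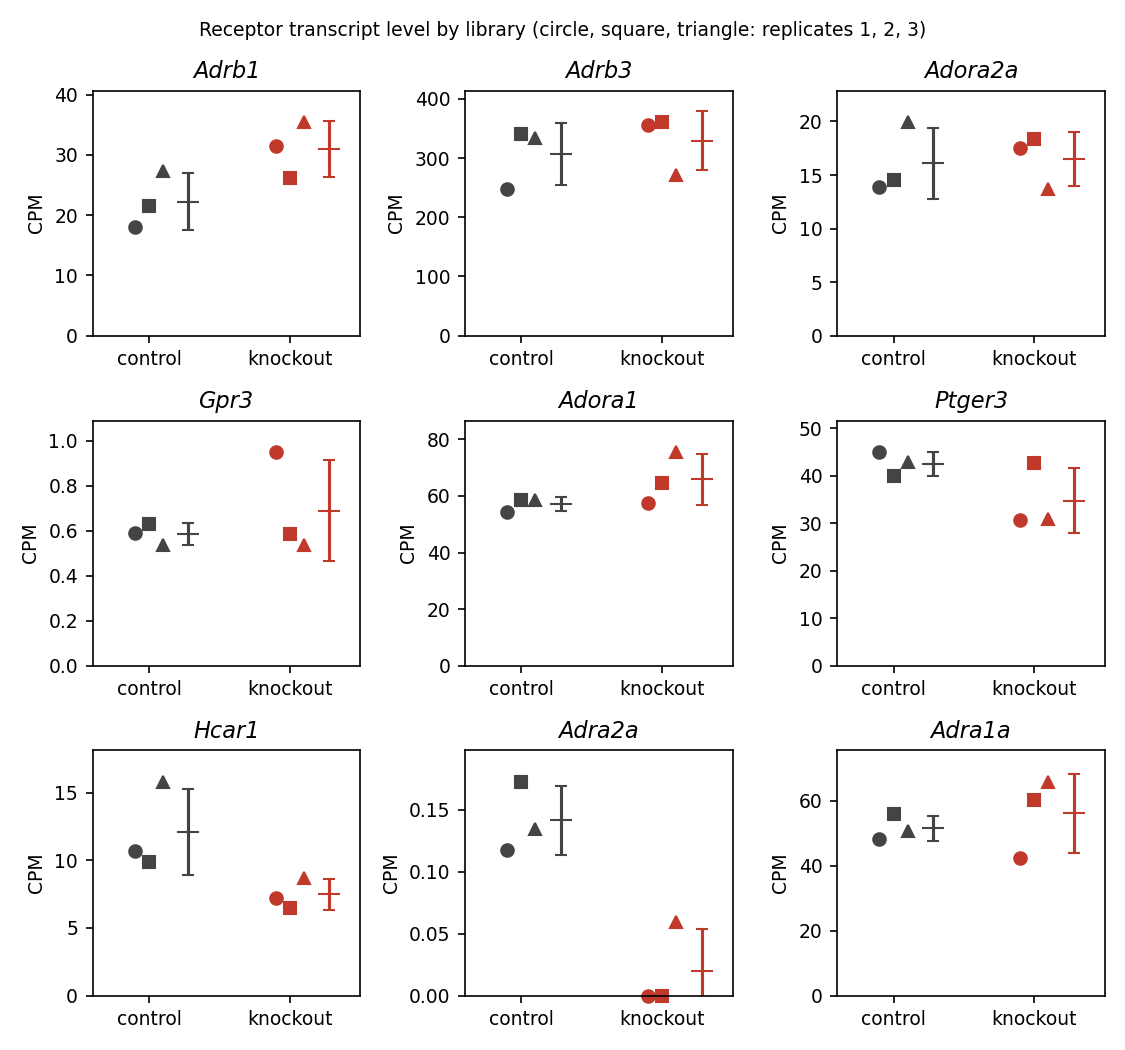
Level of each receptor transcript (vertical axis, CPM, from 0) in the 3 control (grey) and 3 knockout (red) libraries; symbols mark replicates 1 to 3 and the bar at the right of each group is the mean ± SD. The Hcar1 points of the knockouts all lie under those of the controls. Adrb1 and Ptger3 each overlap by a single library pair, and the other tested receptors overlap more widely.

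Adrb3, the beta-3 adrenergic receptor, was by far the most abundant of the 9. Its gene (ENSMUSG00000031489) lies on the minus strand of GRCm38 chromosome 8, 27225776 to 27250616. Control libraries 1 to 3 held 247, 341 and 335 CPM, and knockout libraries 1 to 3 held 356, 360 and 272 CPM. The lowest value belonged to a control and the highest to a knockout, with the remaining values intermingled. The log2 fold change was 0.10 ± 0.18 (SE, edgeR adjusted p = 0.893). Its 95% interval of -0.31 to 0.51 leaves room for differences in either direction. An antisense gene of unnamed function, Gm45470, shares 839 of the 3376 exon bases of Adrb3. It stood at 22.7 to 43.4 CPM, under Adrb3 in every library, and reads of the shared bases cannot be assigned where strand was not used in counting.

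Adrb1, the beta-1 adrenergic receptor, had the largest positive fold change among the receptors. Adrb1 (ENSMUSG00000035283, chromosome 19, 56722199 to 56733113, plus strand) stood at 18.0, 21.5 and 27.3 CPM in controls and at 31.5, 26.1 and 35.4 CPM in knockouts. The groups overlapped only in that knockout library 2 lay slightly under control library 3. Knockouts averaged 139% of the controls. The log2 fold change was 0.48 ± 0.19 (SE; 95% interval 0.04 to 0.92), with an edgeR p of 0.0350 and an adjusted p of 0.437. Leaving out each library in turn gave values between 0.34 and 0.62, all positive. The unadjusted edgeR p rose to 0.125 without control library 1, 0.0983 without control library 2 and 0.119 without knockout library 3. With plain library size it was 0.0957. With the log2 summed muscle marker level as a covariate the log2 fold change was 0.36 ± 0.26 (SE, edgeR adjusted p = 0.531). The brown adipocyte marker list moved the same way: its summed level was 13093 to 13553 CPM in controls and 15292 to 17417 CPM in knockouts, with all 8 of 8 markers positive and none at 0. Its part in the Adrb1 value was not tested.

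Among the other Gs-coupled members, Adora2a showed no separation and Gpr3 was barely detected. Adora2a (ENSMUSG00000020178, chromosome 10, 75316877 to 75334784, plus strand) encodes the Gs-coupled adenosine receptor of fat, through which adenosine released in the tissue can stimulate brown adipocytes. It stood at 13.8, 14.5 and 19.9 CPM in controls and at 17.5, 18.4 and 13.7 CPM in knockouts, with a log2 fold change of 0.04 ± 0.19 (SE; 95% interval -0.40 to 0.48; edgeR adjusted p = 0.967). The highest control and the lowest knockout were both number 3, and the groups overlapped. Gpr3 (ENSMUSG00000049649, chromosome 4, 133209340 to 133212536, minus strand) encodes a receptor that signals through Gs without a ligand, and cold raises its transcript in mouse brown fat. Here it had 10, 11 and 8 counts in controls and 14, 9 and 9 in knockouts. The ratio of knockout to control was 1.16 (95% exact counting interval 0.680 to 1.99), too wide to show a moderate difference. Cd164l2, on the opposite strand, shares 204 exon bases with Gpr3 and stood at a like level, 0.573 to 1.62 CPM.

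Of the 7 tested receptors, Hcar1 stood lowest relative to controls. Hcar1 (ENSMUSG00000049241, chromosome 5, 123876736 to 123880020, minus strand) encodes GPR81, the lactate receptor, which acts through Gi to restrain lipolysis in adipocytes. It stood at 10.7, 9.85 and 15.8 CPM in controls and at 7.24, 6.45 and 8.73 CPM in knockouts. All 3 knockout libraries lay under all 3 controls, the only such case among the 7 tested receptors; over all tested genes, 18.4% had groups that did not overlap, 10.8% with the knockouts lower. Knockouts averaged 61.8% of the controls. The log2 fold change was -0.69 ± 0.22 (SE; 95% interval -1.21 to -0.17), with an edgeR p of 0.0151 and an adjusted p of 0.333. The unadjusted edgeR p was 0.0517 without control library 3 and also without knockout library 2. The log2 fold change lay between -0.83 and -0.49 when each library was left out in turn, and was -0.66 without knockout library 1. With the log2 summed muscle marker level as a covariate it was -0.89 ± 0.33 (SE, edgeR adjusted p = 0.258). White adipocyte markers moved with it: their summed level was 86.0 to 117 CPM in controls and 56.0 to 62.6 CPM in knockouts, 6 of 6 tested markers were negative, and none of the 7 listed was at 0. Their part in the Hcar1 value was not tested.

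The sequences upstream of Adrb1 and Hcar1 are shown because these receptors had the smallest unadjusted p in each direction. A window of 250 bases before the transcription start was taken from RefSeq on GRCm38.p6, which had an entry for 6 of the 9 receptors. Capitals mark TGACG, the core of the cyclic AMP response element to which CREB binds, searched on both strands. The Adrb1 window is chr19:56721867-56722116 on the plus strand and the Hcar1 window chr5:123880004-123880253 on the minus strand.
Adrb1: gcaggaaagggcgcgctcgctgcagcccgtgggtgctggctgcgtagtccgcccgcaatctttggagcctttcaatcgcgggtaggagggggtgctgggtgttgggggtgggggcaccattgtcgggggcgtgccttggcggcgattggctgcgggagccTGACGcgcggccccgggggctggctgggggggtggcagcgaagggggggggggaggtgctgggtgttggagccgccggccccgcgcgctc
Hcar1: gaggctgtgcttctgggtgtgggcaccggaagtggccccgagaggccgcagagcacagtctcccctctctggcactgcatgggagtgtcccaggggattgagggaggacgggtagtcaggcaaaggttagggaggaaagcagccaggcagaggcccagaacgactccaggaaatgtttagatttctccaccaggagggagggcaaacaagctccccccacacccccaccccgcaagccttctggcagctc
The Adrb1 window held 1 match and the Hcar1 window none. TGACG occurred in 3 of 7 windows of the receptors (Adora1 has 2 windows) and in 17.8% of all 32851 windows of the same length. The full palindrome TGACGTCA, which contains the core on both strands, was in none of the 7 and in 1.55% of all windows. The DR1 repeat, the consensus for PPARG with its partner RXR, was likewise in none of the 7 and in 0.0335% of all windows. A match describes the letters of the window only.

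Ptger3 and Adora1, the more abundant Gi-coupled receptors, lay on opposite sides of 0. Ptger3 (ENSMUSG00000040016, chromosome 3, 157566892 to 157645888, plus strand) encodes the EP3 receptor for prostaglandin E2, which lowers cyclic AMP in adipocytes. It stood at 44.9, 39.9 and 42.9 CPM in controls and at 30.7, 42.8 and 31.0 CPM in knockouts. Knockout libraries 1 and 3 lay under all controls, while library 2 was as high as the controls. The log2 fold change was -0.29 ± 0.16 (SE; 95% interval -0.65 to 0.07; edgeR adjusted p = 0.566). It was -0.207 ± 0.146 without knockout library 1 (SE, edgeR adjusted p = 0.56) and -0.213 ± 0.185 without knockout library 3 (adjusted p = 0.809). Without knockout library 2 it was -0.47 ± 0.13 (SE, edgeR adjusted p = 0.403). Adora1 (ENSMUSG00000042429, chromosome 1, 134199223 to 134235431, minus strand) encodes the adenosine A1 receptor, the Gi-coupled counterpart of Adora2a. It stood at 54.4, 58.7 and 58.6 CPM in controls and at 57.3, 64.7 and 75.4 CPM in knockouts. The controls were close together and the knockouts spread upward from them. The log2 fold change was 0.20 ± 0.13 (SE; 95% interval -0.10 to 0.51; edgeR adjusted p = 0.637), 0.29 ± 0.11 without knockout library 1 (adjusted p = 0.206), and -0.07 ± 0.17 with the muscle marker covariate (adjusted p = 0.881). The 3′ part of Adora1 shares 1162 of its 5785 exon bases with Mybph, a muscle myosin-binding protein gene on the opposite strand. Mybph was at 0.178 to 8.48 CPM, and since the use of strand in counting is not given, reads of the shared bases cannot be assigned.

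Adra1a and Adra2a complete the alpha receptors of the set. Adra1a (ENSMUSG00000045875, chromosome 14, 66635251 to 66771168, plus strand), the alpha-1A receptor, stood at 48.2, 55.7 and 50.6 CPM in controls and at 42.4, 60.2 and 65.6 CPM in knockouts. Knockout library 1 was the lowest of the 6 and knockout libraries 2 and 3 were the highest. With all libraries the log2 fold change was 0.12 ± 0.17 (SE; edgeR adjusted p = 0.860). Without knockout library 1 it was 0.29 ± 0.11 (adjusted p = 0.215), and with the muscle marker covariate it was -0.32 ± 0.19 (adjusted p = 0.435). The direction of Adra1a thus rested on which libraries or covariates entered, and the muscle covariate cannot be fully separated from genotype. Adra2a (ENSMUSG00000033717, chromosome 19, 54044151 to 54048982, plus strand), the Gi-coupled alpha-2A receptor that blunts lipolysis in white adipocytes, was close to undetected, with 2, 3 and 2 counts in controls and 0, 0 and 1 in knockouts. The ratio of knockout to control was 0.150, with a 95% exact counting interval from 0.00333 to 1.17, so no difference was detectable at this depth. A count of 3 corresponds to 0.172 to 0.203 CPM in these libraries.

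**Figure D2:**
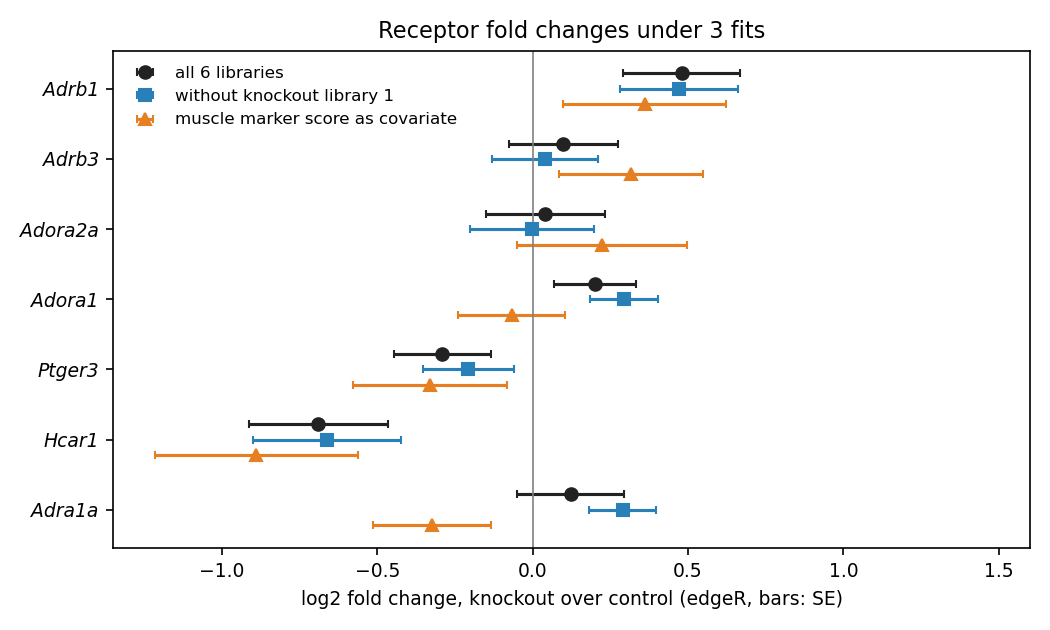
Log2 fold change of the 7 tested receptors, knockout over control (horizontal axis; bars are SE), with all 6 libraries, without knockout library 1, and with the log2 summed muscle marker level as a covariate. Hcar1 and Ptger3 stay negative and Adrb1 and Adrb3 positive in these 3 fits. Adra1a and Adora1 change sign with the covariate, and Adora2a without knockout library 1 (-0.003).

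To compare receptors with each other, counts were divided by merged exon length and scaled library size (RPKM). Adrb3 dominated the mix. In controls it reached 91.1 ± 15.5 RPKM (SD, n = 3), and its share of the summed level of the 9 receptors was 67.0%, 72.7% and 69.7% in control libraries and 73.7%, 72.0% and 64.8% in knockout libraries. Next in controls came Adora1 at 9.89 ± 0.42, Ptger3 at 7.49 ± 0.44, Adrb1 at 6.58 ± 1.38, Adra1a at 5.90 ± 0.44, Adora2a at 5.25 ± 1.09 and Hcar1 at 3.68 ± 0.97 RPKM (SD, n = 3). Gpr3 at 0.214 ± 0.017 and Adra2a at 0.0292 ± 0.0057 RPKM closed the order. Adrb3, Adora1, Gpr3 and Adra2a were each separated from their neighbours in all 3 control libraries, except that Adora1 fell to the fourth place when the longest coding transcript was used as the length. From Ptger3 down to Hcar1 each receptor overlapped the next in the control libraries, so neighbours in this order are not resolved. Receptors further apart were separated: Ptger3 lay above Adra1a, Adora2a and Hcar1 in every control library, and Hcar1 lay under Adrb1 and Adra1a, on the merged exon length. In knockouts Adrb1 had the third highest mean, at 9.17 ± 1.37 RPKM, with Ptger3 at 6.12 ± 1.21 RPKM (SD, n = 3).

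The balance of Gs-coupled to Gi-coupled receptor transcript was set by Adrb3. The ratio of the summed RPKM of the 4 Gs-coupled to the 4 Gi-coupled receptors was 4.05, 5.56 and 5.06 in controls and 6.91, 5.84 and 4.52 in knockouts, with overlapping groups. Leaving Adrb3 out, a choice made after the values were seen, gave 0.489, 0.560 and 0.656 in controls and 0.878, 0.675 and 0.715 in knockouts. Here every knockout was above every control. With the longest coding transcript as the length the groups overlapped, with knockout library 2 (0.5658) slightly under control library 3 (0.5662). These ratios carry no test. In the ratio without Adrb3, a higher mean of Adrb1 and lower means of Hcar1 and Ptger3 went with the higher knockout values. Adora1, at 11.4 ± 1.57 RPKM in knockouts against 9.89 ± 0.42 RPKM in controls (SD, n = 3), went the other way.

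**Figure D3:**
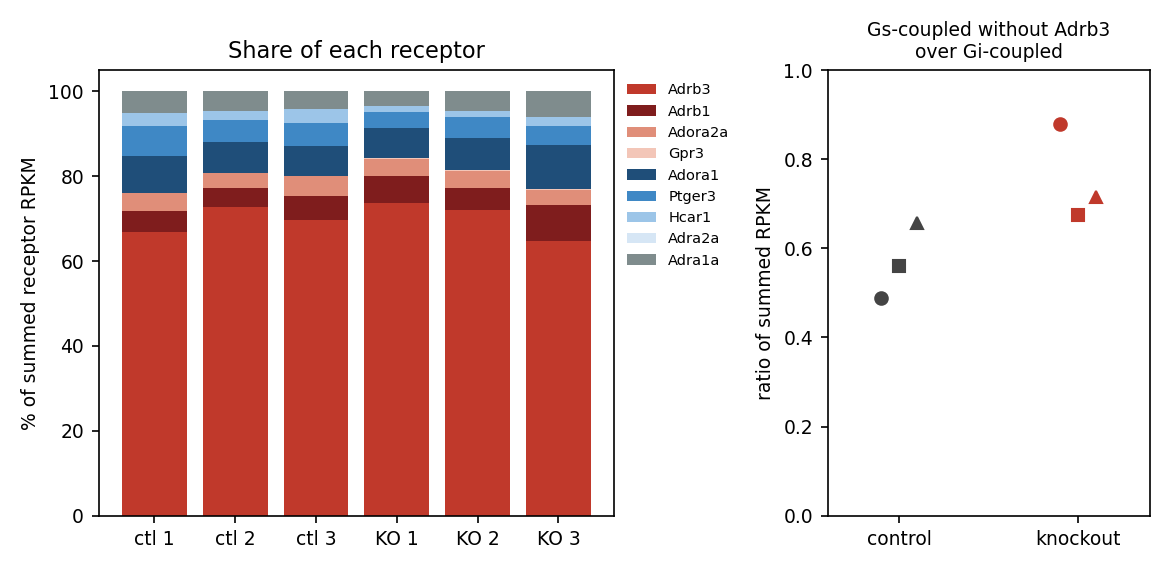
Left, share of each receptor in the summed RPKM of the 9 receptors (vertical axis, percent) in each library, Gs-coupled in red, Gi-coupled in blue and Adra1a in grey. Right, ratio of summed RPKM of Gs-coupled receptors other than Adrb3 to Gi-coupled receptors, by library (symbols mark replicates 1 to 3). Adrb3 takes between 64.8% and 73.7% in every library, and the ratio at the right runs from 0.489 to 0.656 in controls and from 0.675 to 0.878 in knockouts.

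Receptors outside the set were counted from lists of related genes. Of 5 other adrenergic receptors 3 were tested and 0 passed, among them Adra1d (controls 8.75 ± 3.35 CPM, knockouts 7.74 ± 1.63 CPM, SD, n = 3) and Adra2b near 0.976 CPM in both. Of 25 other Gs-coupled receptors 12 were tested and 0 passed, with 4 positive and 8 negative values and a median of -0.09. The most abundant were Pth1r, the parathyroid hormone receptor (0.45 ± 0.20, SE), Tshr, the thyrotropin receptor (-0.50 ± 0.29), and Calcrl, the receptor for adrenomedullin and related peptides (-0.13 ± 0.17).

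Other Gi-coupled receptors leaned lower, without a call. Of 23, 13 were tested, 9 were negative and 0 passed, and the median was -0.43 beside 0.01 over all tested genes. The most abundant did not share this: S1pr1, a sphingosine-1-phosphate receptor, was at 0.09 ± 0.16, Aplnr, the apelin receptor, at -0.11 ± 0.23 and S1pr3 at 0.01 ± 0.23 (log2, SE). In 4 of the 13 every knockout lay under every control, where 10.8% of all genes did. These were Hcar2, Ffar2, Lpar1 and Npy1r, named after their values were seen.

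Hcar2 and Ffar2 are, like Hcar1, metabolite receptors that restrain lipolysis, for ketone bodies with nicotinic acid and for short-chain fatty acids. Hcar2 stood at 2.83, 2.41 and 3.15 CPM in controls and at 1.08, 1.11 and 1.54 CPM in knockouts (log2 fold change -1.16 ± 0.29, SE; edgeR adjusted p = 0.226). Ffar2 stood at 3.47, 2.86 and 5.83 CPM in controls and at 2.23, 1.83 and 1.90 CPM in knockouts (-1.02 ± 0.32; adjusted p = 0.318). Lpar1, a lysophosphatidic acid receptor, was at -0.88 ± 0.31 (adjusted p = 0.375). Npy1r, a receptor for neuropeptide Y, was at -1.72 ± 0.69 (adjusted p = 0.446), with knockout library 1 at 0.745 CPM and the lowest control at 0.766 CPM. Knockout libraries 2 and 3 held 0.0652 and 0.238 CPM, where a count of 3 corresponds to 0.196 and 0.178 CPM. The Npy1r value thus rests on very low counts. Fibroblast and macrophage marker lists were also lower on balance, with 8 of 8 and 9 of 10 tested markers negative, none of either list at 0, and summed levels of 459 to 670 CPM in controls against 274 to 437 CPM in knockouts for fibroblasts and 86.9 to 165 CPM against 67.2 to 145 CPM for macrophages. Their part in these values was not tested.

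**Figure D4:**
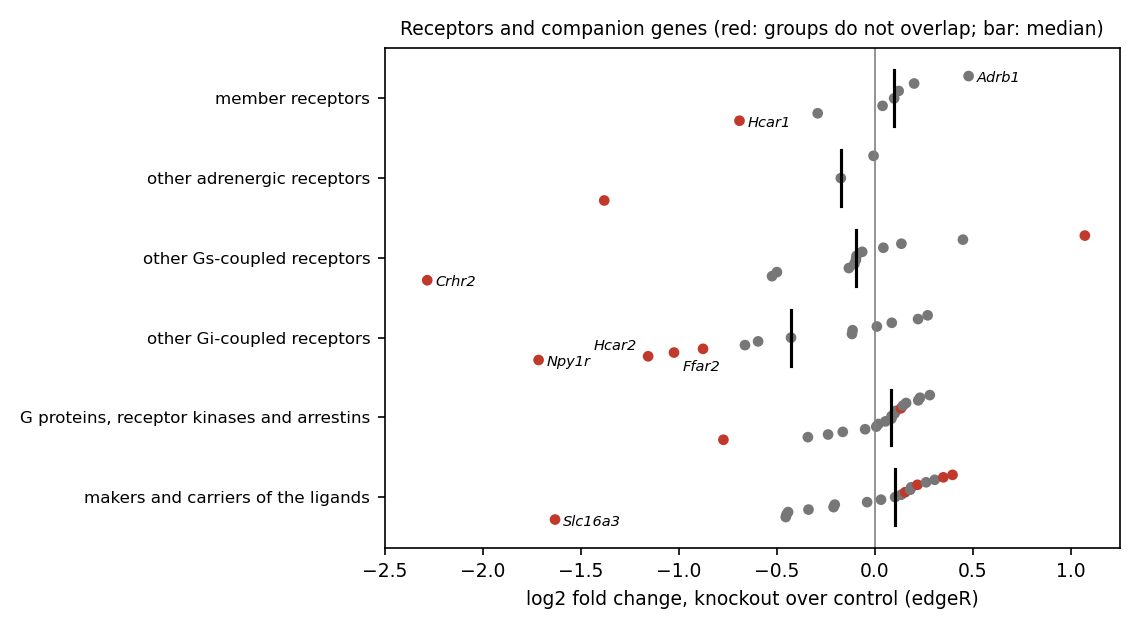
Log2 fold change, knockout over control (horizontal axis), of each tested gene among the receptors described and in 5 companion lists; red points are genes whose groups do not overlap, and the vertical bar is the list median. Hcar1 at -0.69 lies at the low end of its set, and the other Gi-coupled receptors have the lowest median, -0.43.

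Genes upstream and downstream of the receptors gave no call either. On the ligand side, 19 of 21 genes that make, carry or break down noradrenaline, adenosine, prostaglandin E2 or lactate were tested, 11 were positive, 0 passed and the median was 0.10. Ldha, which makes lactate, the ligand of Hcar1, averaged 1808 ± 36.6 CPM in controls against 2103 ± 324 CPM in knockouts (SD, n = 3; log2 fold change 0.22 ± 0.13, SE). Ldhb, which encodes the other main lactate dehydrogenase subunit, was at 0.26 ± 0.15 (log2, SE). Slc29a1, an adenosine transporter named after its values were seen, stood at 60.4, 71.4 and 65.7 CPM in controls and at 91.2, 76.7 and 92.3 CPM in knockouts (0.40 ± 0.13, SE; edgeR adjusted p = 0.333). On the transducer side, 18 of 19 G protein, receptor kinase and arrestin genes were tested, 13 were positive, 0 passed and the median was 0.09. Gnas, which encodes the Gs alpha subunit, averaged 2527 ± 201 CPM in controls against 3069 ± 335 CPM in knockouts (SD, n = 3; 0.28 ± 0.12, SE; edgeR adjusted p = 0.477). Gnb1, a beta subunit, was at 0.13 ± 0.11 and Grk3, a kinase that desensitises receptors, at 0.01 ± 0.22.

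Genes with the most similar profile over the 6 libraries were found by the root mean square difference of log2 CPM centred on each gene's mean, among genes of at least 5 CPM. For Hcar1 the nearest were Slc7a10, a neutral amino acid transporter used as a white adipocyte marker (difference 0.14), and Inmt (0.14), where the median over all candidates was 0.46. For Adrb1 they were Kcnk3, a potassium channel of brown adipocytes, and C1qtnf9 (0.09 each, median 0.35). Kcnk3 stood at 447, 584 and 646 CPM in controls and at 854, 715 and 852 CPM in knockouts. For Adrb3 they were Pqlc2 and S1pr1 (0.05 each, median 0.27), for Adora2a Galnt10 (0.05) and Fgfrl1 (0.06), for Adora1 Elmod3 (0.02), for Adra1a Ogdh and Nek4 (0.04 each) and for Ptger3 Ocrl (0.03) and Lrrk1 (0.05). With 6 libraries and many candidates, close profiles are found for any gene, and this is a description only.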

How the data were processed

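The authors deposited estimated counts per gene, not normalized and not whole, for 6 libraries; the labels' protocols name the NEBNext Ultra II RNA kit and paired ends. The submitters' processing notes name StringTie, Salmon, edgeR and GRCm38; the sources used here give no version, annotation release or strand setting. Symbols and positions came from GENCODE vM21 (54131 of 54385 identifiers matched). Counts were rounded, filtered with filterByExpr (minimum count 10, total 15), TMM-scaled and tested with edgeR 4.0.16 in R 4.3.3 (quasi-likelihood, two-sided, genotype only; Benjamini-Hochberg over all tested genes, threshold 0.05). The procedure was tested on simulated data. CPM use the scaled library sizes. SE is the log2 fold change over the root of F. Exact binomial intervals (95%) and the 3-count floor cover counting error only. Libraries are labelled as replicates; whether each is 1 animal is not stated, so the p-values rest on the spread between libraries, which may be technical.

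Receptors and lists were chosen with earlier results of these data known. Named were the 9 receptors, the 3 most abundant genes of each companion list and any called there, and for each tested receptor the 2 genes nearest in profile; others are marked in the text, and a few genes this rule names are not reported here. Transcripts of the receptors were aligned to all GENCODE transcripts (blastn 2.17.0); stretches of 200 bases or more at 90% identity or more were found only for Adora1 with Mybph and Adrb3 with Gm45470, the overlapping genes. Alternatives were other scalings, filters, DESeq2 1.42.0, limma-voom (limma 3.58.1), the replicate number as a block, a muscle marker covariate and each library left out.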

Additional observations from a re-analysis of the deposited data

How the results depend on the processing

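Under each of the 16 alternatives 0 receptors were called in either direction. The number of all genes called did depend on the processing. It was 4 higher and 5 lower with all libraries, 111 and 782 without a low-count filter, 31 and 276 with DESeq2, 12 and 10 with the muscle covariate, and 2 and 2 with the replicate block; plain library size gave 14 lower and limma-voom 27 lower. Leaving out a library gave between 3 and 45 higher and between 1 and 812 lower, the upper values without knockout library 1. Same-numbered libraries of the 2 groups had deviations correlated at 0.09, 0.11 and 0.08, and each library correlated best with its own number, a hint from the data only; the numbers were not taken as pairs. With the replicate block Hcar1 was at -0.68 (adjusted p = 0.253) and Adrb1 at 0.49 (adjusted p = 0.391).

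Hcar1, Ptger3 and Adrb1 kept their direction in all 16 alternatives. Directions turned, with no call, for Adrb3 with plain library size (-0.003) and without control library 1 (-0.051), for Adra1a with the muscle covariate (-0.32) and without knockout library 3 (-0.005), and for Adora1 with the muscle covariate (-0.068). Adora2a turned with plain library size (-0.066) and without control library 1 (-0.07), control library 2 (-0.05), knockout library 1 (-0.003) or knockout library 2 (-0.04). Leaving out a library gave -0.051 to 0.221 for Adrb3, -0.005 to 0.289 for Adra1a and -0.07 to 0.189 for Adora2a. With the longest coding transcript as the length, control levels were 110 RPKM for Adrb3, 13.5 for Ptger3, 12.03 for Adra1a, 11.5 for Adora1 and 0.232 for Gpr3. Depth limits Gpr3 and Adra2a, which did not pass the filter.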

Other observations

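Several receptors that act on cyclic AMP in other tissues had no counts in any of the 6 libraries. Of the Gs-coupled list these were Crhr1, Gpr6 and Mc4r, the melanocortin receptor of appetite neurons, and of the Gi-coupled list Ffar3 and Sstr2. Glp1r, the incretin receptor, and Htr4, a serotonin receptor, had 1 count in all. Of the incretin and peptide receptors that were measured, Gipr averaged 2.98 ± 0.55 CPM in controls against 3.28 ± 0.82 CPM in knockouts (SD, n = 3), Sctr, the secretin receptor, 3.58 ± 0.70 against 3.36 ± 1.59 CPM, and Adcyap1r1, the PACAP receptor, 3.58 ± 0.32 against 3.33 ± 0.44 CPM. None passed the edgeR test. These genes were named after their values were seen.

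Large log2 values that did not pass also occurred in the companion lists. Crhr2, a receptor for urocortins, stood at 7.89, 8.08 and 5.56 CPM in controls and at 3.79, 0.391 and 0.297 CPM in knockouts (edgeR adjusted p = 0.362). Among the knockouts, though not among the controls, this is the order of the muscle markers, whose part was not tested. Slc16a3, a lactate exporter of glycolytic muscle, stood at 12.1, 14.2 and 11.4 CPM in controls and at 9.82, 1.56 and 0.891 CPM in knockouts (edgeR adjusted p = 0.487). Its knockout values, though not its control values, likewise followed the order of the muscle markers, whose part was not tested. Ptger2, a Gs-coupled receptor for prostaglandin E2, was the tested Gs-coupled receptor with the largest positive value, at 0.530, 0.458 and 0.268 CPM in controls and 0.948, 0.913 and 0.831 CPM in knockouts, from 4 to 14 counts a library (log2 fold change 1.07 ± 0.41, SE; edgeR adjusted p = 0.425).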
